A study of Mus musculus with 21 samples.

Results

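The kinesin motors were taken as every probe set whose single gene symbol began with Kif or Kifc and a number, or with Klc and a number for the light chains of conventional kinesin. This gave 110 probe sets of 44 genes out of 45037 probe sets of 18193 genes on the array. By the known role of each gene they fell into 27 probe sets of 14 mitotic kinesins, 66 probe sets of 21 transport kinesins, and 17 probe sets of 9 other kinesins, which serve cilia, Hedgehog signalling, microtubule turnover or epithelia. The rule and the classes use gene symbols and known roles, not measured values, but both were chosen with earlier results of these data known. All 110 entered the tests, with no filter on low signals.

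Kinesins are motor proteins that use ATP to move along microtubules or to take them apart. Mitotic kinesins build the spindle, move and align chromosomes and complete cytokinesis, and their RNAs are made mainly in dividing cells around the G2 and M phases. Transport kinesins carry vesicles, mitochondria and receptor proteins along axons and dendrites, and in the postnatal cerebellum they are found in granule neurons, which have left the cell cycle, as well as in other neurons.

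The mice lacked cystatin B, an inhibitor of cysteine proteases encoded by Cstb, whose loss in humans causes the progressive myoclonus epilepsy EPM1. RNA was hybridized to Affymetrix mouse genome arrays in 3 experiments, namely whole cerebellum at postnatal day 7 (P7), whole cerebellum at P30, and cultured cerebellar granule cells. In each, Cstb-/- mice (allele tm1Rm) were set against wild type controls, all on the 129SvJ background, with 4 knockout and 4 control arrays at P7, 3 and 3 at P30, and 3 and 4 for the cultures. The question put to each experiment was how RNA levels differ between genotypes. The cultures were made from P5 pups after the meninges had been removed, received the DNA synthesis inhibitor AraC at 10 µM, starting 16 to 20 h after plating, to limit glial growth, and were harvested after 2 days in vitro. The deletion is constitutive and present in every cell of the mouse. The labels do not say whether each culture array came from 1 pup or from pooled pups, so p-values measure the spread between arrays.

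The deposited values were log2 signals, centred so that the median of a probe set within its experiment was 0. Levels could therefore not be compared between probe sets or between experiments, and the presence of a cell type could not be read as a level. Every value below is the log2 signal of one array minus the control mean of the same experiment, and every difference is knockout minus control on the log2 scale. A probe set was called changed at a fold change of at least 1.3 and an adjusted p in limma below 0.05 in the cerebella and below 0.01 in the cultures. Both probe sets of Cstb were lower on every knockout array: they fell by 2.31 and fell by 3.10 at P7, fell by 2.70 and fell by 2.77 at P30, and fell by 1.86 and fell by 2.08 in the cultures. The labelled sexes were uneven at P7, with 3 of 4 knockout and 1 of 4 control arrays from males, and at P30 knockout replicate 1 was the only array labelled female, whereas the methods give all P30 mice as males. In the cultures 2 knockout arrays carried Xist and Y-linked Eif2s3y signals opposite to their labelled sex (replicates 1 and 2), and control replicates 7 and 8 carried both signals.

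In the granule cell cultures, mitotic kinesins were higher in the knockout and transport kinesins held no changed member. Of the 27 mitotic probe sets, 14 rose and none fell, covering 8 of the 14 genes (Kif2c, Kif4, Kif11, Kif18a, Kif18b, Kif20a, Kif20b and Kif22), where 2.54% of all probe sets changed, 2.07% higher and 0.469% lower. The median difference was 0.65 over the mitotic probe sets, -0.04 over the 66 transport probe sets and -0.06 over the 17 other probe sets, against -0.02 over all 45037 probe sets. Of the 110, 55 differences lay above 0, 21 of them mitotic, against 45.5% of all probe sets. Averaged over the 27 mitotic probe sets, the 3 knockout arrays lay between 0.71 and 0.75 and the 4 control arrays between -0.04 and 0.04.

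**Figure D1:**
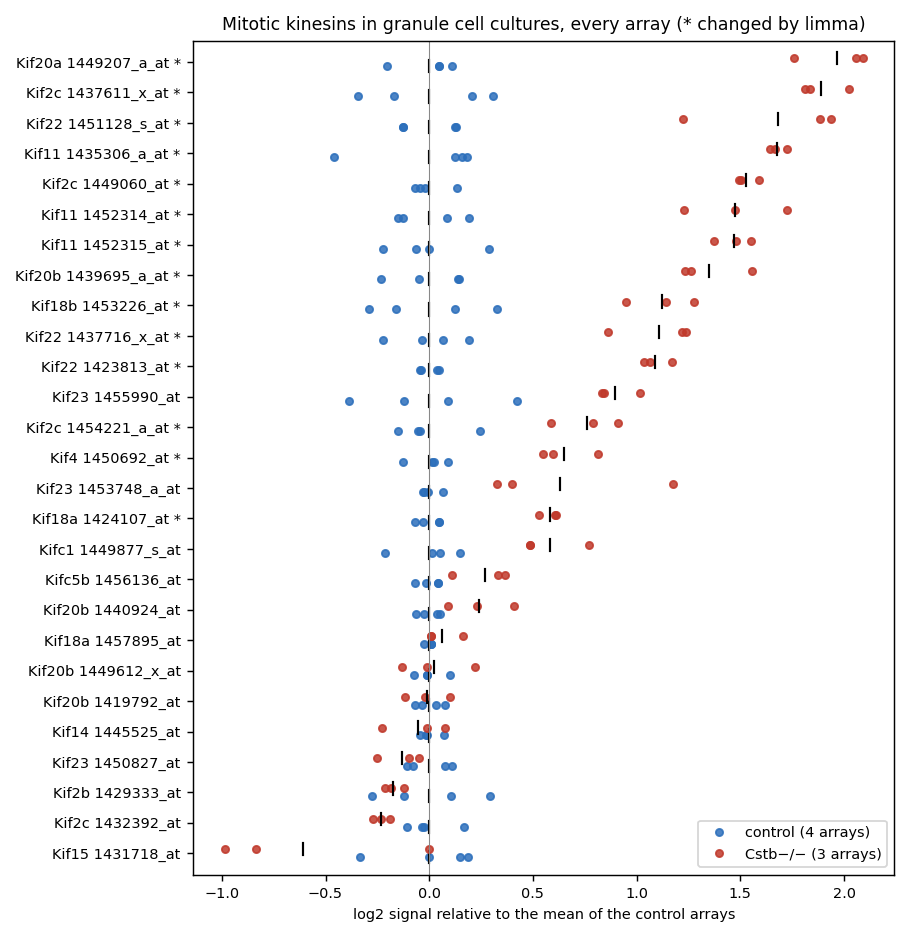
Values of the 27 mitotic kinesin probe sets on every granule cell array, as log2 signal minus the control mean (x axis), with 3 Cstb-/- arrays in red and 4 control arrays in blue and a black tick at each group mean. The 14 probe sets with an asterisk were changed in limma, and on each of them the 3 knockout arrays lie to the right of all controls.

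The mitotic kinesins are known as a group that is transcribed together, through promoter elements of 2 kinds, CCAAT boxes and the cell cycle homology region (CHR). The RefSeq promoter table (GRCm38.p6, 250 bases before to 50 after each start) matched 36 of the 44 kinesin genes. The CHR was searched on both strands as TTTGAA or TTCGAA, and the CCAAT box as CCAAT on both strands, and no match of one overlapped a match of the other in the kinesin promoters. The CHR stood in 11 of 13 mitotic kinesin promoters (84.6%), in 1 of 16 transport kinesin promoters (6.2%), in 3 of 11 promoters of the other kinesins (27.3%), and in 19.2% of all 32851 promoters. CCAAT stood in 9 of 13 mitotic promoters (69.2%), in 6 of 16 transport promoters (37.5%) and in 37.4% of all promoters. Both elements stood in 8 of 13 mitotic promoters (61.5%) and in 7.5% of all promoters. Within the mitotic kinesins the CHR stood in 6 of 7 promoters of genes that changed in the cultures and in 5 of 6 of the others. CCAAT stood in 4 of 7 and in 5 of 6, and both elements in 4 of 7 and in 4 of 6. The E2F site, a further element written as TTGGCGC or TTCGCGC, stood in 2 of 13 mitotic promoters (15.4%) and 3.9% of all. These matches are letters in a window and show no binding.

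The 250 bases before the start of 4 genes are shown, with matches to CCAAT and to the CHR in capitals, to set 2 mitotic kinesins that rose (Kif11 and Kif22) beside 1 that did not (Kif15) and a neuronal transport kinesin with neither element (Kif5c). They lie at chr19:37376132-37376381, plus strand (Kif11), chr7:127042421-127042670, minus strand (Kif22), chr9:122950831-122951080, plus strand (Kif15) and chr2:49619036-49619285, plus strand (Kif5c), each written 5′ to 3′ on the strand of its gene.
Kif11: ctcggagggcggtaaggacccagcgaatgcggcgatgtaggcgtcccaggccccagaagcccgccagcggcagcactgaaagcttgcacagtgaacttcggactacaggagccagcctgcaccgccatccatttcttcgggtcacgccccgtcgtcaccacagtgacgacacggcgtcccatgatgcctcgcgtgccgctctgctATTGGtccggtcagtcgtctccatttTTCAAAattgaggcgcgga
Kif22: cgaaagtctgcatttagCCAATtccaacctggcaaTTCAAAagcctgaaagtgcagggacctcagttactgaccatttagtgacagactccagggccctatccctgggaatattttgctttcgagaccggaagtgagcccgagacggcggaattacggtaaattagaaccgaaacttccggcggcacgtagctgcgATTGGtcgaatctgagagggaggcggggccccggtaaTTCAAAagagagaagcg
Kif15: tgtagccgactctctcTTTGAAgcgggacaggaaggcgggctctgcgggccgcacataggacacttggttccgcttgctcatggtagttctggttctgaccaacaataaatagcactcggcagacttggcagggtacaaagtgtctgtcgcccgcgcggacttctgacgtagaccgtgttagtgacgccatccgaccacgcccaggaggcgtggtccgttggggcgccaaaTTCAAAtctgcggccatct
Kif5c: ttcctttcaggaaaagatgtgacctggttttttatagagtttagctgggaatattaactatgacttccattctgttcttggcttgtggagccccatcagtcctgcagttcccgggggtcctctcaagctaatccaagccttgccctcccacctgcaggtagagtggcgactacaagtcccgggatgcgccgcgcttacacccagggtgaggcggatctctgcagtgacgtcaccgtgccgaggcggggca

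Among the motors of spindle assembly, Kif11 (Eg5), the kinesin-5 that pushes the spindle poles apart, rose by 3 of 3 probe sets. On probe set 1452315_at the knockout replicates 1, 2 and 3 read 1.48, 1.55 and 1.37, and the control replicates 4, 5, 7 and 8 read -0.22, 0.00, -0.07 and 0.29. The genotypes did not overlap, and the difference was 1.47 (SE 0.12, limma adjusted p = 0.000489). The remaining probe sets of Kif11 gave 1.48 (1452314_at, SE 0.14) and 1.68 (1435306_a_at, SE 0.15).

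Kif15, the kinesin-12 that keeps the spindle bipolar beside Kif11, had the lowest difference of the mitotic probe sets, at -0.61 (SE 0.23, limma adjusted p = 0.123, not changed). Its knockout arrays read -0.98, 0.00 and -0.84 and its controls -0.33, 0.15, 0.19 and 0.00, so replicate 2 of the knockout lay among the controls. Kif15 was named here after its values had been seen. Kifc1, the minus-end motor that focuses spindle poles, gave 0.58 (SE 0.11, limma adjusted p = 0.0178) and its near-identical relative Kifc5b 0.27 (SE 0.08, limma adjusted p = 0.0784), and neither passed the threshold although the knockout arrays lay above all controls on both. Signal may be shared between these near-identical genes, so the values of each are uncertain.

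Among the motors that act on chromosomes, Kif2c (MCAK), the kinesin-13 that takes apart wrongly attached microtubules at centromeres, rose by 3 of 4 probe sets. On 1449060_at the knockout arrays read 1.59, 1.49 and 1.50 and the controls -0.07, -0.02, -0.05 and 0.13. The knockout arrays lay close together and far above the controls, and the difference of 1.53 (SE 0.08, limma adjusted p = 6.16e-05) had the lowest p of the 110 kinesin probe sets. The differences were 1.89 on 1437611_x_at and 0.76 on 1454221_a_at, whereas the fourth probe set of Kif2c, 1432392_at, gave -0.23 (limma adjusted p = 0.106) with the knockout arrays just below the controls.

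Kif22 (Kid), a chromokinesin that pushes chromosome arms away from the poles, rose by 3 of 3 probe sets. On 1423813_at the knockout arrays read 1.03, 1.17 and 1.07 and the controls 0.05, -0.04, -0.04 and 0.04, a difference of 1.09 (SE 0.07, limma adjusted p = 0.000148). Both groups were tight and did not overlap. The differences were 1.11 on 1437716_x_at and 1.68 on 1451128_s_at, where knockout replicate 2 read 1.23 against 1.94 and 1.88 in the other two. Kif4, a chromokinesin of chromosome condensation and of the central spindle, rose by 0.65 (SE 0.09, limma adjusted p = 0.00539), from control values between -0.13 and 0.09 to 0.60, 0.55 and 0.81.

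Of the kinesin-8 motors, Kif18a, which aligns chromosomes at the metaphase plate, rose on 1 of 2 probe sets. On 1424107_at it read 0.53, 0.61 and 0.61 in the knockout and -0.03, 0.05, 0.05 and -0.07 in the controls, a difference of 0.58 (SE 0.07, limma adjusted p = 0.00278). On 1457895_at it gave 0.06 (limma adjusted p = 0.579) and the groups overlapped. There knockout replicates 1 and 2 and control replicates 4, 5 and 7 held the same value, so this probe set says little about Kif18a either way. Kif18b, which sets the length of astral microtubules, rose by 1.12 (SE 0.15, limma adjusted p = 0.00504) with knockout values of 0.95, 1.28 and 1.14 above control values of -0.16, -0.29, 0.12 and 0.33.

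The kinesin-6 motors of cytokinesis held the largest difference of all kinesins. Kif20a (Mklp2) read 2.06, 1.76 and 2.09 in the knockout and 0.11, 0.05, -0.20 and 0.05 in the controls, a rise of 1.97 or 3.91-fold (SE 0.11, limma adjusted p = 9.24e-05). Its control replicates 5 and 8 held the same value. Kif20b rose on 1 of 4 probe sets, by 1.35 on 1439695_a_at (SE 0.12, limma adjusted p = 0.000787), and its other three gave 0.24, 0.03 and -0.01. Kif23 (Mklp1), a subunit of centralspindlin, did not pass the threshold on any of 3 probe sets, with differences of 0.90 (limma adjusted p = 0.0176), 0.63 and -0.13. On the first of these, 1455990_at, the knockout arrays read 1.01, 0.83 and 0.84, above controls at -0.39, 0.42, 0.09 and -0.12. Kif14, also of cytokinesis, gave -0.05, and Kif2b, a kinetochore kinesin-13, gave -0.17.

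At an unadjusted p below 0.05, 19 of the 27 mitotic probe sets were higher, 5 of them beyond the 14 called, and 2 were lower. Over all probe sets 18.3% were higher and 13.3% lower at that cut. In all, 19 of 27 had every knockout array above every control array, against 13.4% of all probe sets, and 1 had every knockout array below, against 9.33%. The 14 called probe sets became 2 with the methods' t-test corrected over all probe sets, 8 without knockout replicate 3, 9 without control replicate 8, and 1 (Kif2c 1449060_at) without control replicates 7 and 8 together, which leaves 3 against 2 arrays. Over gene means 8 mitotic genes were called, but Kif18a was no longer among them (0.32, limma adjusted p = 0.0129) and Kifc1 was (0.58, limma adjusted p = 0.00856). The share of all probe sets called under each of these settings is not given here. A loss of calls, also with single arrays left out below, is therefore not read as particular to the mitotic kinesins.

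Leaving out each of the 7 culture arrays in turn kept 8 of the 14 calls each time and ended the other 6 at least once, all with differences still above 0. The call of Kif2c 1454221_a_at was lost without any 1 of the 7 arrays (0.69 to 0.85, limma adjusted p = 0.0104 to 0.0404). That of Kif4 was lost without any 1 array but knockout replicate 2 (0.57 to 0.68, limma adjusted p = 0.0127 to 0.0256). That of Kif18b was lost without knockout replicate 1 or 3 or control replicate 4, 5 or 7 (1.03 to 1.21, limma adjusted p = 0.0134 to 0.0297), and that of Kif18a 1424107_at without knockout replicate 1 or 3 or control replicate 7 or 8 (0.56 to 0.61, limma adjusted p = 0.0102 to 0.0172). Of Kif22, 1437716_x_at (1.05 and 1.13) and 1451128_s_at (1.58 and 1.64) lost their calls without knockout replicate 3 or control replicate 8, with limma adjusted p up to 0.0176 and 0.0116.

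The transport kinesins had 0 of 66 probe sets called in the cultures by limma. At an unadjusted p below 0.05, 10 were higher (background 18.3% of all probe sets) and 12 were lower (background 13.3%), and the methods' t-test corrected over the probe sets past the fold called 1, lower. At the looser adjusted p of 0.05 the count was 7, with 5 higher and 2 lower. For neither of these settings is the share of all probe sets given here, so neither count is read against a background. The lowest p was that of Kif1b, which carries mitochondria and synaptic vesicle precursors. On its probe set 1451200_at the knockout arrays read -0.50, -0.40 and -0.41, below controls at 0.10, -0.03, -0.10 and 0.03, a difference of -0.43 (SE 0.08, limma adjusted p = 0.0125). On 1455182_at the same gene read 0.62, 0.28 and 0.61, above controls at 0.11, -0.19, -0.04 and 0.11, a difference of 0.50 (SE 0.12, limma adjusted p = 0.0322). The 7 probe sets of Kif1b thus ran from -0.66 to 0.50, and no single direction describes the gene.

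Such disagreement was common among the transport motors and was also seen in mitotic ones. Of the 18 transport genes with several probe sets, 14 had differences of both signs, as did 3 of 6 mitotic genes, and Kif1b, Kif5b and the mitotic Kif2c had probe sets at an unadjusted p below 0.05 in both directions. Kif5b, the conventional kinesin heavy chain of most cells, ranged from -0.62 on 1418427_at to 1.22 on 1418429_at (SE 0.32, limma adjusted p = 0.0469) over its 6 probe sets. On 1418429_at the knockout arrays read 1.74, 0.56 and 1.38 and the controls 0.41, -0.63, -0.10 and 0.32, and on 1418427_at the knockout arrays read -1.39, -0.21 and -0.28. The knockout arrays were thus far apart on both probe sets, with replicate 1 the most extreme. Over the transport probe sets, knockout replicate 1 lay farthest from the control mean on 28 of 66, and the median SD among arrays was 0.16 for the knockout and 0.13 for the controls.

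The light chain Klc1, which binds cargo for conventional kinesin, gave 0.69 on 1428881_at (SE 0.17, limma adjusted p = 0.0388), 0.57 on 1448541_at (SE 0.13, limma adjusted p = 0.0322) and -0.02 on 1417005_at. On 1428881_at the knockout arrays read 1.03, 0.27 and 0.75, all above controls at 0.19, -0.07, -0.08 and -0.04. Kif13b, which brings vesicles to the plasma membrane, gave -0.55 on 1433158_at (SE 0.12, limma adjusted p = 0.0277), with knockout values of -0.62, -0.31 and -0.71 below controls at -0.21, 0.04, 0.08 and 0.09. The neuronal heavy chains Kif5a and Kif5c, and Kif1a, which carries synaptic vesicle precursors, had no probe set at an adjusted p below 0.05. Their differences ran from -0.04 to 0.43 for Kif5a, from -0.58 to 0.07 for Kif5c and from -0.15 to 0.26 for Kif1a. The heterotrimeric motor subunits Kif3a and Kif3b, which serve cilia and axons, ranged from -0.02 to 0.55 and from -0.17 to 0.06.

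**Figure D2:**
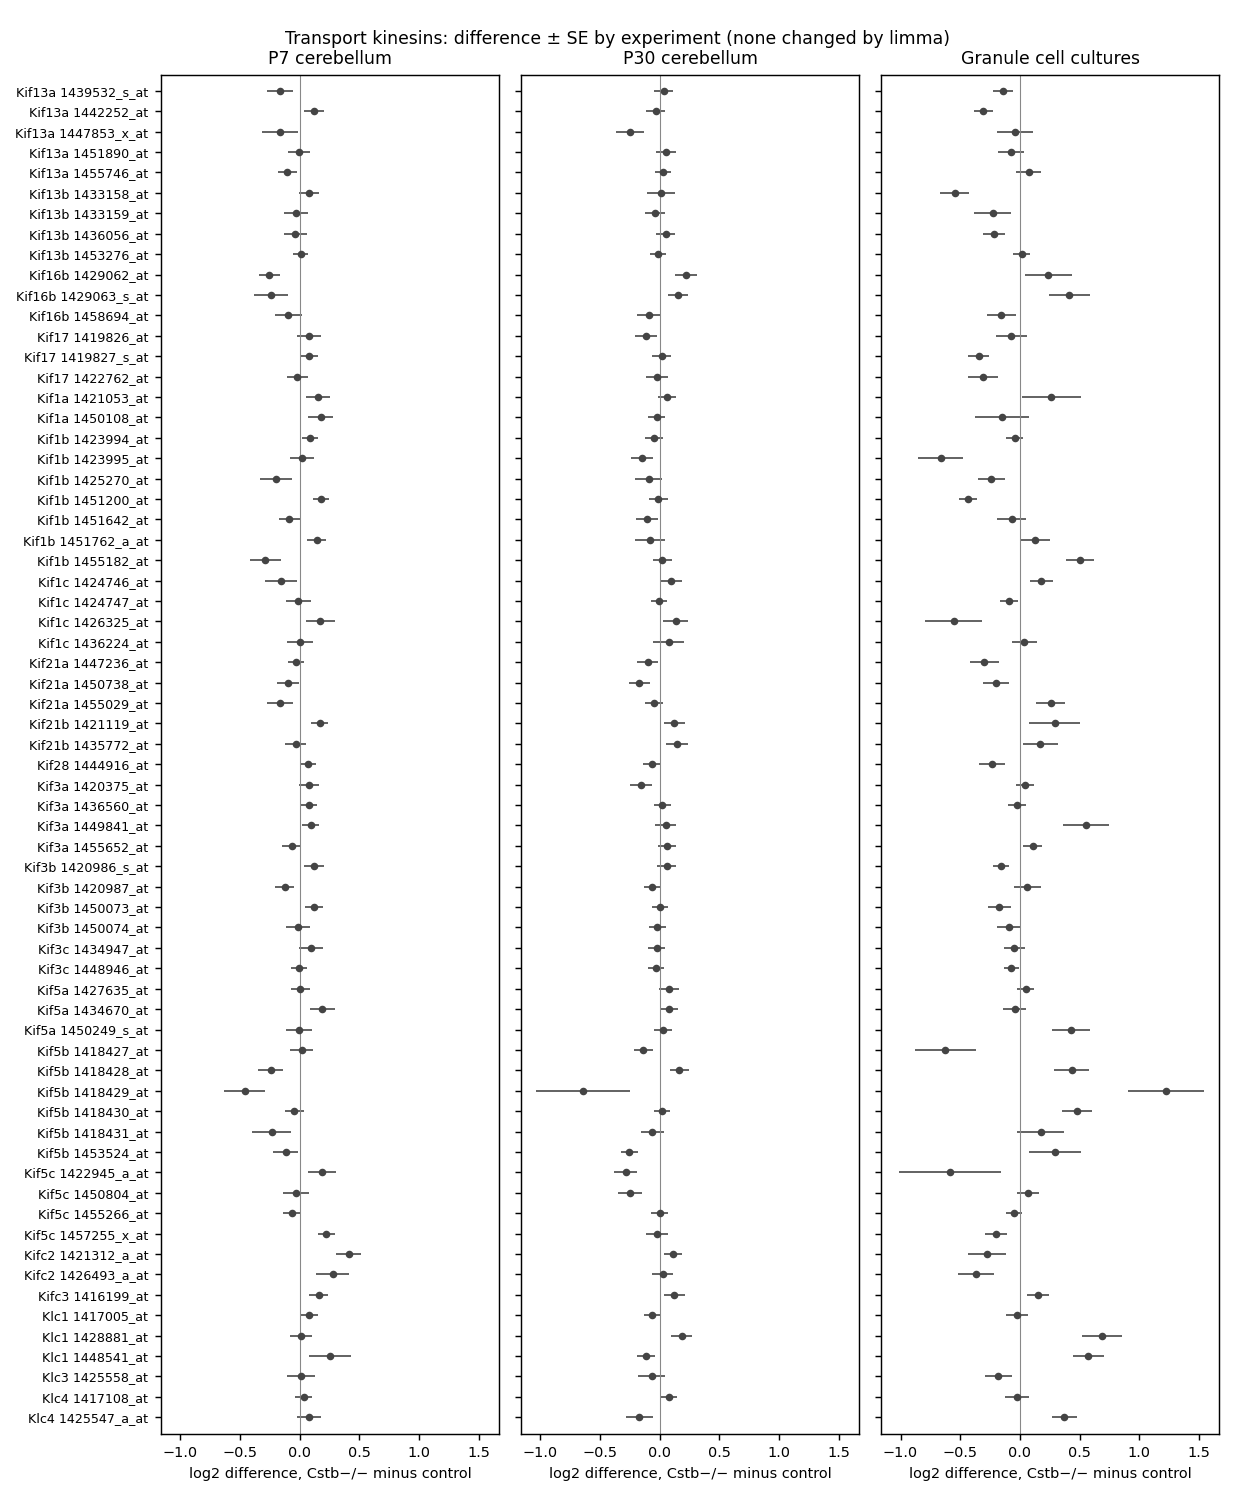
Difference (Cstb-/- minus control, log2, x axis) with its standard error as bars for each of the 66 transport kinesin probe sets (rows, by gene) in P7 cerebellum, P30 cerebellum and granule cell cultures (panels). None was changed in limma, and in the cultures the probe sets of one gene, such as the 6 of Kif5b, scatter to both sides of 0.

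The 17 probe sets of the other kinesins had no changed member in the cultures, and the methods' t-test corrected over the probe sets past the fold called none. At an unadjusted p below 0.05, 1 was lower and none higher (background 13.3% and 18.3% of all probe sets). That probe set was Kif12 1424910_at, an epithelial kinesin, at -0.27 (SE 0.09, limma adjusted p = 0.0959), with knockout arrays at -0.43, -0.22 and -0.16 below controls at -0.05, 0.08, 0.09 and -0.11. Kif2a, a depolymerase of axon pruning that also works at spindle poles, gave up to 0.36 over its 5 probe sets (limma adjusted p = 0.16). The ciliary and Hedgehog kinesin Kif7 gave 0.03.

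The partners with which the motors work gave the same split by role. Of 60 probe sets of 26 mitotic partner genes, 36 rose and none fell in the cultures, covering 24 genes, and the median difference was 1.10. The spindle assembly factor Tpx2 rose by 1.88 (SE 0.07), the checkpoint kinase Bub1b by 2.25 (SE 0.09), the mitotic kinase Cdk1 by 1.85 (SE 0.08) and the kinase Plk1 by 1.46 (SE 0.08), each with a limma adjusted p of 9.55e-05 or lower. Averaged over the list, the knockout arrays lay between 0.89 and 1.04 and the controls between -0.07 and 0.07. The microtubule polymerase Ckap5 and the spindle pole protein Numa1 were the 2 partner genes with no changed probe set. Of 85 probe sets of 37 transport partner genes (cargo adaptors, kinesin and dynein partners), limma called none, and the median was 0.02. At an unadjusted p below 0.05, 12 were higher and 8 lower (background 18.3% and 13.3% of all probe sets). The lowest p in that list was that of Snap91, at -0.70 (SE 0.13, limma adjusted p = 0.0136).

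Markers of other cells moved in the same cultures. Of 28 probe sets of 12 fibroblast and pericyte genes, 16 rose, covering 11 genes, with Rgs5 the exception, and the median difference was 1.10. Averaged over that list the knockout arrays lay between 1.21 and 1.32 and the controls between -0.06 and 0.06. Col1a2, a collagen chain, rose by 3.41 (SE 0.10, limma adjusted p = 1.91e-05) and Acta2, smooth muscle actin, by 2.25 (SE 0.10, limma adjusted p = 2.86e-05). In the list of granule cell precursors 8 of 31 probe sets rose, covering 3 genes and including 5 probe sets of the cyclin Ccnd2 among the 6 of lowest p, with a median of 0.24. The precursor list as a whole lay mostly above the controls, with 24 of 31 differences above 0. In it 14 probe sets were higher and 1 lower at an unadjusted p below 0.05 (background 18.3% and 13.3% of all probe sets). The precursor array means were 0.23 to 0.33 in the knockout and -0.02 to 0.02 in the controls, so the groups did not overlap. Of 27 astrocyte and Bergmann glia probe sets 1 rose (Aldh1l1, 0.76, SE 0.09, limma adjusted p = 0.00277), and of 26 granule neuron probe sets 1 fell (Fat2, -0.62, SE 0.08, limma adjusted p = 0.00382). The granule neuron list as a whole lay on both sides of the controls, with 16 of 26 differences above 0 and a median of 0.06. At an unadjusted p below 0.05, 2 of its probe sets were higher and 4 lower. Its array means were -0.09 to 0.09 in the knockout and -0.03 to 0.03 in the controls, so the groups overlapped. The astrocyte list as a whole lay mostly above the controls, with 22 of 27 differences above 0 and a median of 0.38. At an unadjusted p below 0.05, 15 were higher and 2 lower (background 18.3% and 13.3% of all probe sets). Its array means were 0.23 to 0.39 in the knockout and -0.10 to 0.16 in the controls. The oligodendrocyte list lay mostly below the controls, with 20 of 24 differences below 0 and a median of -0.32. At an unadjusted p below 0.05, 10 were lower and 2 higher, against the same background. Its only called probe set, of Olig2, nevertheless rose by 1.00 (SE 0.16, limma adjusted p = 0.0081). The part of these cells in the rise of the mitotic kinesins was not tested, and more dividing cells cannot be told apart from more RNA per cell in bulk RNA.

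**Figure D3:**
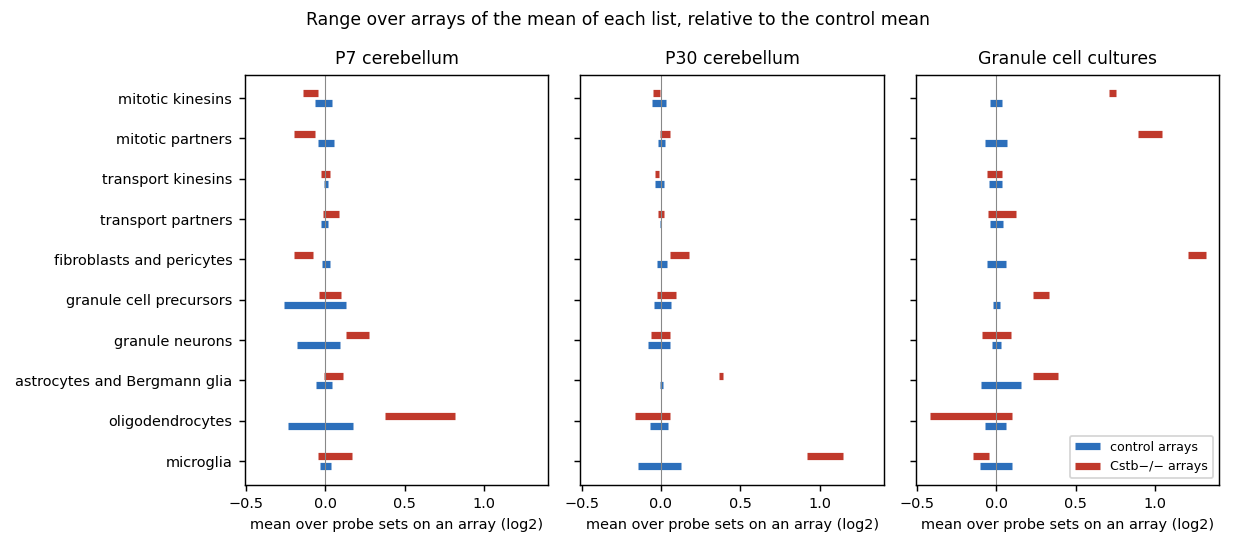
Mean over the probe sets of each list on an array (log2, relative to the control mean), drawn as the range over knockout arrays (red) and over control arrays (blue) in P7 cerebellum, P30 cerebellum and granule cell cultures. In the cultures the mitotic kinesins (0.71 to 0.75) and their partners (0.89 to 1.04) stand apart from the controls. So do the fibroblast and pericyte markers (1.21 to 1.32) and, by less, the granule cell precursors (0.23 to 0.33). The astrocytes and Bergmann glia (0.23 to 0.39) also lie above their controls (-0.10 to 0.16). The transport lists overlap the controls.

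In P7 cerebellum limma called 0 of 110 kinesin probe sets, where 0.00666% of all probe sets were called. At an unadjusted p below 0.05, 4 were higher and 5 were lower (background 4.47% and 4.99%), and the methods' t-test corrected over the probe sets past the fold called 1. The knockout arrays lay above all controls for 3 of the 110 and below for 2 (background 2.8% and 2.84%). The mitotic probe sets lay mostly just below the controls, with 23 of 27 differences below 0 and a median of -0.09, against 0.01 over all probe sets, of which 53.7% lay above 0. Averaged over the 27, the knockout arrays lay between -0.14 and -0.05 and the control arrays between -0.07 and 0.04, so that the groups overlapped.

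One mitotic probe set of P7 had an unadjusted p below 0.05, Kif11 1435306_a_at. It read -0.28, -0.19, -0.44 and -0.34 in knockout replicates 1, 2, 3 and 5, below 0.09, 0.05, -0.14 and 0.00 in control replicates 1 to 4, a difference of -0.31 (SE 0.08, unadjusted p = 0.00229, limma adjusted p = 0.328). The other two probe sets of Kif11 gave -0.21 and -0.13, and both overlapped the controls. Kif2c ranged from -0.14 to 0.01, Kif22 from -0.17 to -0.02 and Kif18a from -0.19 to -0.04 over their probe sets, all with overlapping groups. Kif2b, at 0.16, was the highest of the mitotic kinesins at P7. None of the 60 mitotic partner probe sets was called at P7 either, but 50 lay below 0, 15 had an unadjusted p below 0.05 and all 15 of those were lower (background 4.99%), with a median of -0.14. Averaged over the partners, the knockout arrays lay between -0.20 and -0.06 and the controls between -0.05 and 0.05, just apart. Every knockout array lay below all controls on 7 partner probe sets and above them on 0 (background 2.84% and 2.8%). The partner of lowest p was Hmmr, a spindle protein, at -0.42 (SE 0.09, limma adjusted p = 0.269).

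Among the transport motors of P7 the lowest p was that of Kifc2, a neuronal minus-end motor. On 1421312_a_at it read 0.26, 0.37, 0.69 and 0.33 in the knockout, above 0.08, -0.05, -0.16 and 0.14 in the controls, a difference of 0.41 (SE 0.10, limma adjusted p = 0.326). Kif5c 1457255_x_at followed at 0.22 (SE 0.07, limma adjusted p = 0.415), with knockout arrays at 0.20, 0.12, 0.21 and 0.36 above controls at 0.01, 0.02, -0.04 and 0.01. Kif16b, an early endosome motor, gave -0.25 on 1429062_at (SE 0.09, limma adjusted p = 0.43), with values of -0.40, -0.28, -0.09 and -0.24 in the knockout and -0.01, -0.09, -0.06 and 0.16 in the controls. The median over the transport probe sets was 0.01, and with labelled sex as a covariate 2 of them were called, Kif5b 1418428_at (-0.39) and Kif1b 1425270_at (-0.40).

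At P7 the granule neuron markers had a median of 0.18, with none of 26 called and 10 higher and 0 lower at an unadjusted p below 0.05, the oligodendrocyte markers a median of 0.49, with none of 24 called and 19 higher and 0 lower, and the choroid plexus markers a median of -2.24, with none of 15 called and 13 lower and 0 higher. Over the choroid plexus list the knockout arrays ranged from -2.93 to -0.39. The granule cell precursor list had a median of -0.01, with 16 of 31 differences below 0 and none called. At an unadjusted p below 0.05, 5 of its probe sets were lower and 0 higher, where 4.99% of all probe sets were lower and 4.47% higher. Its array means were -0.04 to 0.10 in the knockout and -0.26 to 0.13 in the controls, so the groups overlapped. The fibroblast and pericyte markers also lay mostly below the controls, with none of 28 called, 10 lower and 0 higher at an unadjusted p below 0.05, 21 differences below 0, and array means of -0.20 to -0.08 in the knockout and -0.02 to 0.03 in the controls. The part of these cells in the P7 differences of the kinesins was not tested.

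In P30 cerebellum limma again called 0 of 110 kinesin probe sets, where 0.144% of all probe sets were called, and 3 were higher and 5 lower at an unadjusted p below 0.05 (background 4.16% and 3.55%). The knockout arrays lay above all controls for 3 and below for 8 (background 6.24% and 6.25%), 49 of the 110 differences lay above 0 (background 47%), and the methods' t-test called none in either form. Medians were -0.03 for the mitotic, -0.01 for the transport and -0.05 for the other kinesins, against -0.01 over all probe sets. The mitotic probe sets of lowest p were Kifc5b, at 0.17 (SE 0.07, limma adjusted p = 0.633), Kif22 1451128_s_at, at -0.17 (SE 0.07, limma adjusted p = 0.642), and Kif18b, at -0.22 (SE 0.11, limma adjusted p = 0.673). For Kif22 1451128_s_at the knockout arrays read -0.23, -0.18 and -0.10 and the controls 0.07, -0.02 and -0.05, just apart and on the opposite side of the controls from the cultures.

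The transport probe sets of lowest p at P30 belonged to the conventional kinesin heavy chains. Kif5b 1453524_at read -0.22, -0.31 and -0.24 in the knockout and 0.05, 0.01 and -0.06 in the controls, a difference of -0.26 (SE 0.07, unadjusted p = 0.00528, limma adjusted p = 0.419). Kif5c gave -0.28 on 1422945_a_at (SE 0.10, limma adjusted p = 0.55), with knockout arrays at -0.50, -0.16 and -0.20 below controls at 0.04, -0.04 and 0.00, and -0.25 on 1450804_at (SE 0.10, limma adjusted p = 0.613), where the groups overlapped. The largest difference at P30, Kif5b 1418429_at at -0.64 (SE 0.39, limma adjusted p = 0.746), rested on knockout replicate 2, which read -1.65 against -0.17 and -0.10. Among the other kinesins, Kif9 of motile cilia gave -0.21 (SE 0.08, limma adjusted p = 0.578), Kif26b, a kinesin-like protein of cell adhesion, 0.25 (SE 0.11, limma adjusted p = 0.642), and Kif24, a centriole protein, -0.16 on 1431937_at (SE 0.08, limma adjusted p = 0.696). At P30 microglia markers rose on 9 of 16 probe sets, with a median of 0.63, and the mitotic partners had 0 of 60 called, with 7 higher and 0 lower at an unadjusted p below 0.05, and a median of 0.01. Astrocyte and Bergmann glia markers rose on 3 of 27 probe sets, all of 1 gene, with 24 differences above 0 and a median of 0.14. Of 28 fibroblast and pericyte probe sets 0 were called, 21 differences lay above 0 and the median was 0.10. The part of these cells in the P30 differences of the kinesins was not tested.

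**Figure D4:**
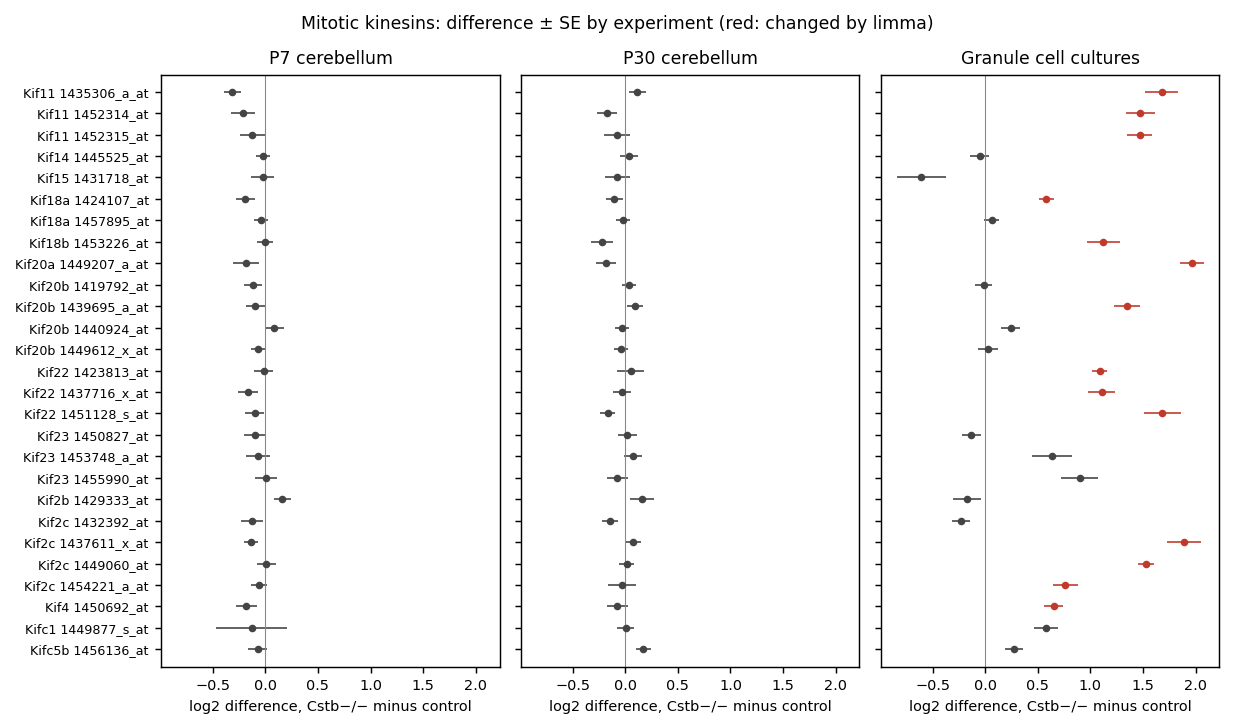
Difference (Cstb-/- minus control, log2, x axis) with its standard error as bars for each of the 27 mitotic kinesin probe sets (rows) in P7 cerebellum, P30 cerebellum and granule cell cultures (panels), with changed probe sets in red. All 14 changed probe sets lie in the cultures, and the median difference is -0.09 at P7, -0.03 at P30 and 0.65 in the cultures.

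Whether the genotype difference itself differed between experiments was tested in 1 limma fit over the 6 groups, which pools a spread that was not equal (median residual SD over all probe sets 0.126 at P7, 0.106 at P30 and 0.142 in the cultures). The difference in the cultures was above that of P7 for 17 of 27 mitotic probe sets (10 genes) and below it for none, where 13% of all probe sets were above and 7.32% below at an adjusted p below 0.05. It was above that of P30 for 15 of 27 (9 genes) and below it for none, against 3.91% and 1.18%. Kif2c 1449060_at had a difference of 1.53 in the cultures and 0.01 at both P7 and P30, which differed by 1.52 (SE 0.11, limma adjusted p = 1.43e-08) and 1.51 (SE 0.12, limma adjusted p = 6.29e-08). Kif11 1435306_a_at, at 1.68 in the cultures and -0.31 at P7, differed by 1.99 (SE 0.16, limma adjusted p = 3.26e-08).

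The transport kinesins gave no single direction in this test, with 6 of 66 above and 9 below the P7 difference and 1 above and 1 below the P30 difference. Kif1b 1451200_at, at -0.43 in the cultures and 0.18 at P7, differed by -0.61 (SE 0.09, limma adjusted p = 0.000112), and Kif1b 1455182_at, at 0.50 and -0.29, differed by 0.79 (SE 0.17, limma adjusted p = 0.0028). No kinesin probe set had a difference at P30 that differed from the one at P7 at an adjusted p below 0.05, where 0.115% of all probe sets were above and 0.00888% below. The experiments differ in age, cell composition, culture and array set, which cannot be told apart in these comparisons.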

How the data were processed

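RNA of whole cerebella and of cultured granule cells had been hybridized to Affymetrix arrays. The deposited values were log2 RMA signals (background-adjusted and quantile-normalized, with quality control in GCOS and import into GeneSpring GX), from which the authors subtracted the median of each probe set within each experiment. The number of arrays limits the precision. By the methods, 1 P7 array per genotype and 1 knockout culture array had been left out by the authors after principal component analysis. The methods name more culture arrays per genotype than that leaves here, and the arrays beyond the 3 knockout and 4 control ones were not analysed here.

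Here 64 control probe sets were left out and no filter on low signal was used, so 45037 probe sets were fitted in each experiment with limma 3.58.1 (R 4.3.3; lmFit and eBayes, Benjamini-Hochberg adjustment over all of them, fold 1.3, adjusted p below 0.05 or, in the cultures, 0.01), after a test on simulated data. Genes were named from the platform annotation: 34945 probe sets have 1 symbol, 932 several and 9160 none. Of the 110 kinesin probe sets, 45 had tied values among the culture arrays, as did 51.3% of all probe sets there (2.86% at P7 and 2.10% at P30). Among the 14 changed, 1 had a tie, Kif20a 1449207_a_at, where control replicates 5 and 8 held the same value. Among the unchanged mitotic probe sets, ties stood in those of Kif2b, Kif14, Kif15 and Kifc5b, in Kif18a 1457895_at and in Kif20b 1449612_x_at.

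Per-array values were given for changed probe sets, all probe sets of Kif2c, Kif11, Kif18a and Kif22, and the 3 of lowest p per class and experiment; others named were chosen after their values were seen. The kinesin classes, partner lists and marker lists were chosen with earlier results of these data known. Alternatives were the methods' t-test, array weights, 1 fit over 6 groups, labelled sex as a covariate, gene means, a replicate block and leaving out arrays.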

Additional observations from a re-analysis of the deposited data

Results flagged for a closer look

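Of 60 groups of 4 arrays that were examined for a lone array, 5 held one, where about 1 in 20 groups would by chance. In the cultures control replicate 5 read -0.46 on Kif11 1435306_a_at, against 0.12 to 0.18 in the other controls, and control replicate 8 read -0.024 on Kif18a 1457895_at, where the other three controls had the same value of 0.01. At P7 knockout replicate 1 read 0.049 on Kif18a 1424107_at, against -0.29 to -0.24 in the other knockouts, and 0.19 on Kif2c 1449060_at, against -0.08 to -0.03. Knockout replicate 5 of P7 read -0.27 on Kif2a 1450052_at, against -0.11 to -0.07.

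At a limma adjusted p below 0.05, 13% of all probe sets had a genotype difference in the cultures above that at P7, and 7.32% below it. Of the kinesins, 17 of 27 mitotic probe sets were above and none below, 6 of 66 transport ones above and 9 below, and 1 of 17 others above. The genotype difference in the cultures thus differed from that at P7 for 33 kinesin probe sets at that cut, given as cultures minus P7. It was for Kif2c 1.52 on 1449060_at, 2.03 on 1437611_x_at and 0.82 on 1454221_a_at, and for Kif20a 2.15 on 1449207_a_at. The values were for Kif11 1.99 on 1435306_a_at, 1.69 on 1452314_at and 1.59 on 1452315_at, and for Kif22 1.78 on 1451128_s_at, 1.27 on 1437716_x_at and 1.11 on 1423813_at. The test gave for Kif20b 1.44 on 1439695_a_at, and for Kif18b 1.12 on 1453226_at. It was for Kif18a 0.77 on 1424107_at, and for Kif1b -0.61 on 1451200_at and 0.79 on 1455182_at. The values were for Kif4 0.84 on 1450692_at, and for Kif13b -0.62 on 1433158_at. The test gave for Kifc2 -0.69 on 1421312_a_at, and for Kif5c -0.42 on 1457255_x_at. It was for Kif2a 0.54 on 1452499_a_at, and for Kifc5b 0.34 on 1456136_at. For the rest it was 1.69 on 1418429_at, 0.68 on 1418428_at and 0.52 on 1418430_at for Kif5b, 0.89 on 1455990_at and 0.70 on 1453748_a_at for Kif23, 0.68 on 1428881_at for Klc1, and 0.65 on 1429063_s_at for Kif16b. It was negative at -0.73 on 1426325_at for Kif1c, -0.68 on 1423995_at for Kif1b, -0.64 on 1426493_a_at for Kifc2, -0.43 on 1442252_at for Kif13a and -0.42 on 1419827_s_at for Kif17.

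Against P30 the same test called 17 kinesin probe sets, given as cultures minus P30, where 3.91% of all probe sets were above and 1.18% below. The values were for Kif2c 1.51 on 1449060_at, 1.82 on 1437611_x_at and 0.79 on 1454221_a_at, and for Kif20a 2.15 on 1449207_a_at. It was for Kif22 1.85 on 1451128_s_at, 1.13 on 1437716_x_at and 1.04 on 1423813_at, and for Kif11 1.56 on 1435306_a_at, 1.65 on 1452314_at and 1.54 on 1452315_at. The values were for Kif20b 1.26 on 1439695_a_at, and for Kif18b 1.34 on 1453226_at. It was for Kif18a 0.68 on 1424107_at, and for Kif4 0.73 on 1450692_at. The values were for Kif1b -0.42 on 1451200_at, for Kif5b 1.86 on 1418429_at, and for Kif23 0.97 on 1455990_at. The pooled spread of this test is stated beside its results above, and the cause of these differences was not tested.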

How the results depend on the processing

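The median difference of the mitotic kinesins in the cultures stayed above 0 in every alternative for which it was recorded. It was 0.65 in the main fit, 0.52 over gene means and 0.65 to 0.75 with single arrays left out, while 6 of the 27 probe sets lay below 0 in the main fit. The number of changed kinesin probe sets in the cultures was 14, and 8 to 17 with single arrays left out (mitotic 8 to 14, transport 0 to 3), 8 without knockout replicate 3 and 9 without control replicate 8. It was 2 with the methods' t-test corrected over all probe sets, 8 genes over gene means (Kifc1 in, Kif18a out) and 1 without control replicates 7 and 8 together, a setting chosen after seeing the data. It was 23 at an adjusted p below 0.05 and 23 in 1 fit over the 6 groups, each with 7 transport probe sets. Transport probe sets called numbered 4 with array weights, 1 with labelled sex as a covariate and 1 with the t-test corrected over probe sets beyond fold 1.3. The transport median of -0.04 ranged from -0.07 to 0.026 with single arrays left out. At P7 that form of the t-test called 1 and the sex covariate 2, all transport, and the P7 transport median of 0.01 became 0.043 with sex and 0.045 over gene means. Kinesin probe sets whose difference in the cultures differed from P30 numbered 17, and 16 to 29 with single arrays left out (29 without knockout replicate 2 of the cultures). The shares of all probe sets called under these alternatives are not given here, so these counts are not read against a background.

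Among the probe sets given by array, signs turned for unchanged cerebellar ones of Kif2c, Kif11 and Kif22, and the cause was not tested. At P7 Kif2c 1449060_at became -0.029 with array weights, Kif22 1423813_at 0.031 with sex, and with single arrays left out they ranged from -0.050 to 0.079 and from -0.081 to 0.038. At P30 with sex Kif22 1423813_at became -0.011, Kif2c 1449060_at -0.000585 and Kif11 1452315_at 0.014. Knockout replicate 1 was the only P30 array labelled female, so the sex term takes out that array. Leaving out knockout replicate 1 gave the same values, and these are not separate results. At P30 with single arrays left out Kif22 1423813_at ranged from -0.043 to 0.204, Kif2c 1449060_at from -0.017 to 0.056, Kif11 1452315_at from -0.217 to 0.014, Kif2c 1454221_a_at from -0.181 to 0.093 and Kif22 1437716_x_at from -0.068 to 0.054.

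Same-numbered arrays did not deviate together (correlations of 0.006, 0.046 and 0.168 at P7 and -0.035, -0.178 and -0.034 at P30). With the replicate block 0 kinesin probe sets were called at P7 and at P30, as without it, and Kif2c 1432392_at at P7 turned from -0.13 to 0.0068. For the cultures, no paired analysis was possible because the genotypes share no replicate number there.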
